A study of Mus musculus with 6 samples.

Results

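The signalling genes by which oocytes and the somatic cells of the follicle act on each other were read from whole newborn mouse ovary. They were the oocyte ligands Gdf9 and Bmp15, the oocyte receptor Kit, its somatic ligand Kitl, and Bmpr2 and Bmpr1b, receptors for the oocyte ligands. All probes whose platform gene symbol is one of these 6 genes were taken, which gave 16 of the 45281 probes of an Illumina MouseWG-6 BeadChip and 6 of its 19057 gene symbols. Total RNA from 2 wildtype ovary samples and 4 samples labelled as Sohlh1/Sohlh2 double KO was hybridised, 1 array per sample. The strain is given for all 6 as C57BL/6/129S6/SvEv and the age as newborn. The alleles, and whether samples were single or pooled animals or came from separate litters, are not given in the sources used here. The p-values therefore cover the spread among these arrays alone, which may be technical in part. SOHLH1 and SOHLH2 are basic helix-loop-helix transcription factors of germ cells.

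GDF9 and BMP15 are secreted relatives of the bone morphogenetic proteins (BMPs) that oocytes make and that act on granulosa cells. Both use the type II receptor BMPR2. BMP15 pairs it with the type I receptor BMPR1B (ALK6), and GDF9 pairs it with TGFBR1 (ALK5), after which SMAD proteins carry the signal to the nucleus. In the other direction somatic cells make Kit ligand, which activates the receptor tyrosine kinase KIT on the oocyte and, through PI3-kinase and AKT, removes the restraint that FOXO3 puts on oocyte growth. Mast cells and melanocytes carry KIT as well.

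Basic helix-loop-helix proteins are known to bind the E-box, whose letters are CANNTG and read the same on both strands, so the stretches upstream of Kit, whose level fell, and of Bmp15, whose level was not called, are shown with any E-box letters in capitals. They are the 250 bases before the annotated start, from RefSeq on GRCm38.p6, printed 5' to 3' on the gene's strand (Kit, chr5:75574737-75574986, strand +; Bmp15, chrX:6320725-6320974, strand -).
Kit: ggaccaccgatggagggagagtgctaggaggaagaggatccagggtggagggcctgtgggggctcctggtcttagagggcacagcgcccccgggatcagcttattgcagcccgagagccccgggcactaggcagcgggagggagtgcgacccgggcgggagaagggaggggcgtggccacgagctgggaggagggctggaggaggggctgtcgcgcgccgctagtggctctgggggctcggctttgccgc
Bmp15: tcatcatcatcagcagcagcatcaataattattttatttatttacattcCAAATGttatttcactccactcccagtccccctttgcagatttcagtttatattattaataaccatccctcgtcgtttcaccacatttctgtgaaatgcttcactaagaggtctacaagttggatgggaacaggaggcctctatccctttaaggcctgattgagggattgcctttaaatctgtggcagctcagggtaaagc
The Kit stretch held 0 E-boxes and the Bmp15 stretch held 1, CAAATG, which began 201 bases before the start. Of 32851 such stretches in the table, 66.2% held at least 1. The table held 5 of the 6 genes, with no entry for Gdf9. Its stretches for Kitl and Bmpr2 held 0 E-boxes, and those for the 3 annotated starts of Bmpr1b held 2, 0 and 1. A match is a description of letters and not a binding site.

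Of the 16 probes, 9 gave a detection p under 0.05 on at least 2 of the 6 arrays and were tested, with every gene represented by 1 or 2 of them. The other 7 did not, with raw signals of 41.9 to 64.3 where the array medians were 59.3 to 61.1. They were 1 probe of Kit, 2 of Kitl, 2 of Bmpr2 and 2 of Bmpr1b, and 6 of the 7 were detected on no array. Over all 21981 tested probes 3.62% were called lower and 3.65% higher in the double knockout, by limma with Benjamini-Hochberg adjustment at 0.05. Among the 9 tested probes of the signalling genes 3 were called lower, the probe of Gdf9 and 2 of Kit, and 0 were called higher. The genes were chosen with earlier results of these data known, so this count is no test against the shares of all probes. Gdf9 and 1 of these Kit probes were detected on all 6 arrays. The second Kit probe was detected on both wildtype arrays and on 1 of 4 double-knockout arrays, so it met the filter through the group where it is high and had to differ. On the normalized log2 scale the 3 probes were also the only ones of the 9 whose groups did not overlap. In each the double knockout was lower, a separation found in 17.0% of all tested probes. The remaining 6, those of Bmp15, Kitl, Bmpr2 and Bmpr1b, did not pass, and 0 of them had an unadjusted p under 0.05. The targeted gene Sohlh1 differed by -3.32 ± 0.16 and -3.29 ± 0.16 (SE) on the log2 scale at its 2 probes. The Sohlh2 probe was detected on 1 wildtype and 0 double-knockout arrays. The kind of mutation, and whether the probes lie within the altered sequence, are not given in the sources used here. Outside that sequence the probes would not check the mutation itself.

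**Figure D1:**
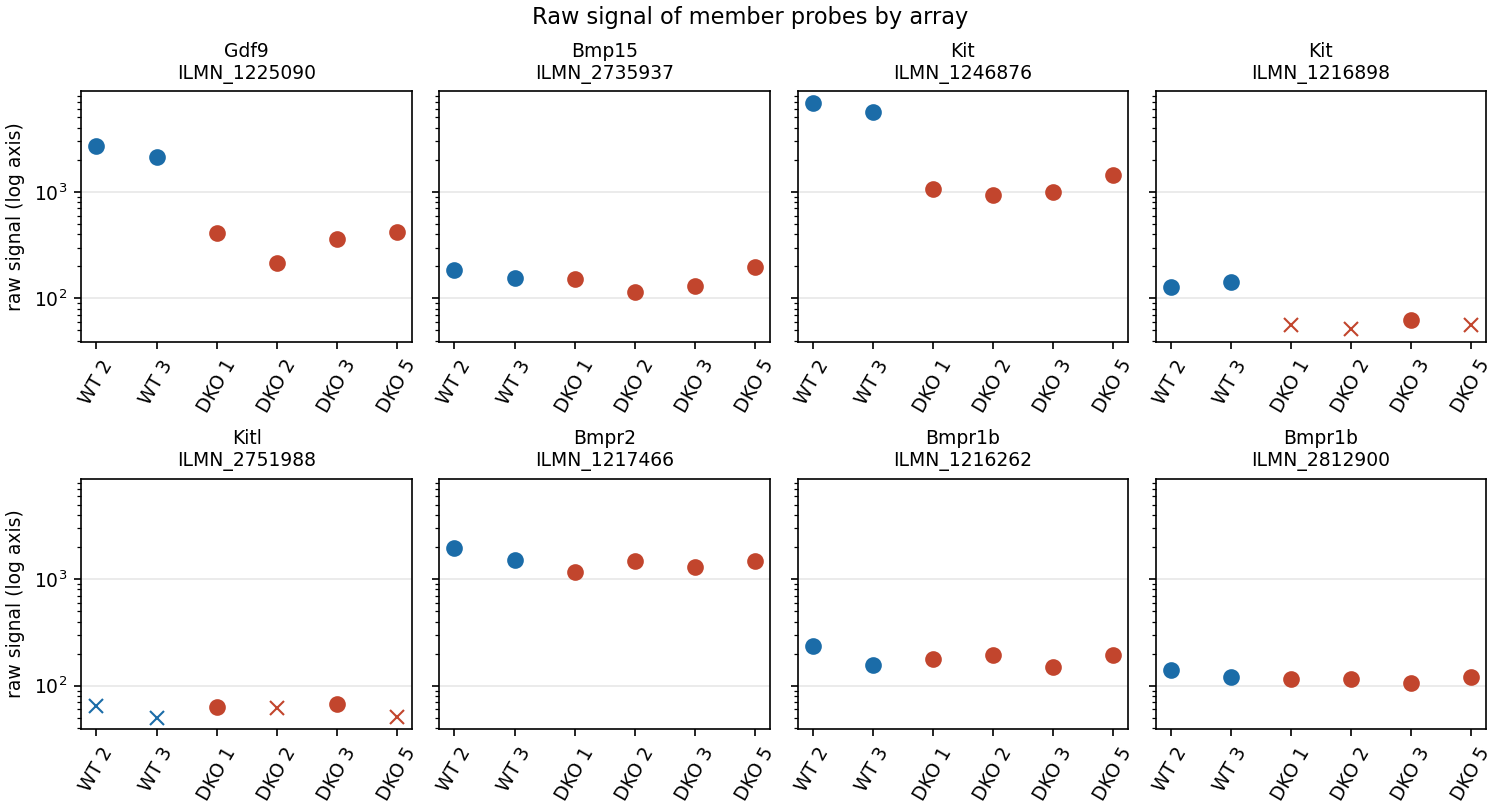
Raw signal (log axis) of 8 of the 9 tested probes on each of the 6 arrays, with wildtype (WT) in blue and double knockout (DKO) in red. Circles have a detection p under 0.05 and crosses do not. Gdf9 and both Kit panels show the groups apart, and the Kitl probe was detected on double-knockout arrays 1 and 3 only. In the Bmpr2 panel the lower wildtype signal, 1500.0, lies just above the highest double-knockout signal, 1493.9, and the groups overlapped after normalization.

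Gdf9 was among the deepest falls on the arrays. Its raw signal was 2722.1 and 2115.9 on wildtype arrays 2 and 3, and 411.2, 217.1, 361.4 and 420.9 on double-knockout arrays 1, 2, 3 and 5. The groups were far apart, and array 2 was the lowest of the double knockouts. On the background-corrected, quantile-normalized log2 scale the level was 11.06 ± 0.12 (SD, n = 2) in wildtype and 8.33 ± 0.59 (SD, n = 4) in the double knockout. The difference was -2.73 ± 0.32 (SE), 6.65-fold lower, with an adjusted p = 0.00205 by limma, and it ranked 17 among 21981 tested probes from the deepest fall. Gdf9 was still detected on all 4 double-knockout arrays. Its double-knockout levels spanned 1.33 on the log2 scale, against 0.16 between the wildtype arrays.

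Bmp15, the other oocyte ligand, gave a different picture. Its raw signal was 184.0 and 155.7 in wildtype and 151.3, 114.4, 130.8 and 196.2 in double-knockout arrays 1, 2, 3 and 5. The wildtype values lay inside the double-knockout range, with double-knockout array 5 above both and array 2 the lowest. The log2 difference was -0.06 ± 0.27 (SE, adjusted p = 0.918 by limma), with a 95% interval from -0.68 to 0.56. The interval does not show that Bmp15 was equal in the genotypes. The probe was dim but was detected on all 6 arrays.

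The difference between these ligands was tested within each array, as the Gdf9 probe minus the Bmp15 probe. Relative to the wildtype mean this quantity was -2.42, -2.97, -2.41 and -2.88 on double-knockout arrays 1, 2, 3 and 5, while the wildtype arrays lay within 0.01 of it. The change was -2.67 on the log2 scale, or 6.36-fold lower for Gdf9 against Bmp15. The exact permutation test gave two-sided p = 0.0667, which is the smallest that 2 against 4 arrays allow, and p = 0.1 after adjustment over 6 such comparisons. Array 2 was the lowest of the double knockouts for both ligands. On the log2 scale it was also lowest for Kit probe ILMN_1246876 and the germ cell markers Dazl and Dppa3. For the germ cell markers Ddx4 and Stag3 array 1 was lowest.

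Kit fell at ILMN_1246876, the only one of its 3 probes that was detected on all 6 arrays. It gave raw signals of 6887.2 and 5573.4 in wildtype and 1061.2, 926.8, 1004.7 and 1446.0 on double-knockout arrays 1, 2, 3 and 5. The groups did not overlap, and array 5 was the highest of the double knockouts. The level was 12.45 ± 0.06 (SD, n = 2) in wildtype and 10.14 ± 0.35 (SD, n = 4) in the double knockout. The difference was -2.31 ± 0.22 (SE), 4.96-fold lower, with an adjusted p = 0.000707 by limma and rank 38 from the deepest fall.

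The second Kit probe, ILMN_1216898, is annotated to a cDNA clone outside RefSeq and was far dimmer. It gave 127.8 and 142.1 in wildtype and 56.8, 51.5, 63.2 and 56.4 on double-knockout arrays 1, 2, 3 and 5. Both wildtype arrays detected it, and only array 3 of the double knockouts did, so its call is not counted as support for the fall at the bright probe. Each double-knockout array was then set to the lowest level that counts as detected there, or to its own level where higher. Read so, the double knockout was 3.29-fold lower under the main settings, which is not a lower limit. The size rests on how background was handled: the fitted difference was -1.96, and -1.14 with no background correction. The third Kit probe, ILMN_1250169, also annotated to a clone, lay at 47.3 to 55.2 on all 6 arrays and measured nothing above background.

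**Figure D2:**
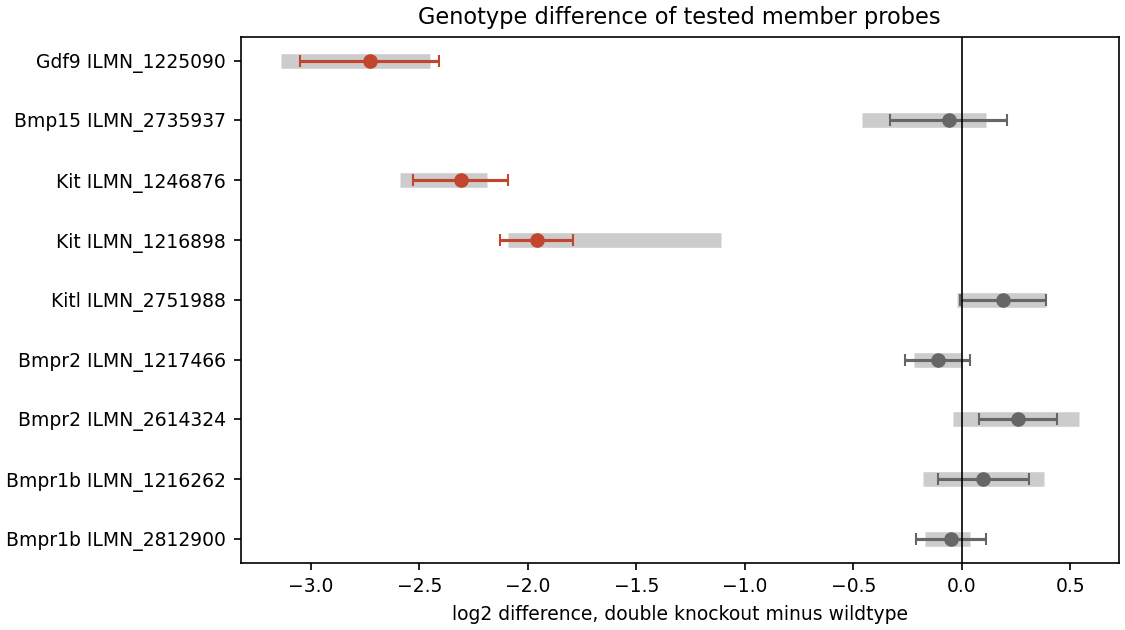
Log2 difference (double knockout minus wildtype, horizontal axis) of the 9 tested probes, as points with standard errors over 2 and 4 arrays. Red marks an adjusted p under 0.05 and the grey bars span the values under all alternative settings run; Gdf9 and the 2 Kit probes lie below -1.1 under each of them, and the bars of the others, that of the bright Bmpr2 probe excepted, cross 0. ILMN_1216898 of Kit was detected on 1 of 4 double-knockout arrays, so its point depends on the background level.

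The falls of Kit and Gdf9 were set against each other in the same way. Relative to the wildtype mean, the Kit probe minus the Gdf9 probe was 0.08, 0.91, 0.19 and 0.51 on double-knockout arrays 1, 2, 3 and 5, and within 0.04 on the wildtype arrays. The change was 0.42 on the log2 scale, a smaller fall for Kit in all 4 double knockouts, and the exact permutation test gave p = 0.133 (0.16 adjusted over the 6 comparisons). Array 2 of the double knockouts, lowest for Gdf9, supplied the largest of these values.

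In whole ovary, fewer oocytes and less RNA per oocyte cannot be told apart, so germ cell markers are given beside both falls. Of 7 markers listed, 4 were tested, and Mael, Sycp3 and Nanos3 were not detected on any array. Ddx4, the germ cell RNA helicase, gave 92.1 and 102.4 in wildtype and 69.8 to 91.7 on the 4 double-knockout arrays (log2 difference -0.40 ± 0.21 SE, adjusted p = 0.278). The Ddx4 probe was detected on all 6 arrays but was the dimmest of the 4, close to background. It counts equally with the others in the mean used below. Dazl, a germ cell RNA-binding protein, gave -0.27 (adjusted p = 0.491) and the meiotic cohesin subunit Stag3 gave -0.11 (0.692).

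Dppa3, a maternal factor abundant in oocytes, was the single marker called: its signal was 9748.3 and 6490.9 in wildtype and 2059.9, 1856.9, 2641.8 and 3871.4 in the double knockouts, a 2.74-fold fall (adjusted p = 0.021 by limma). That call ended without wildtype array 2 (adjusted p = 0.203) or 3 (0.0795) or double-knockout array 1 (0.0588). Over all 12163 tested genes 3.58% were called lower. The summed level of the 4 tested markers ran from 8154 to 10845 in wildtype and from 3506 to 5974 in the double knockout, most of it Dppa3.

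Set against the mean of these 4 markers within each array, Kit changed by -1.50, -1.87, -2.18 and -1.46 on double-knockout arrays 1, 2, 3 and 5 relative to wildtype, which is -1.75 on average or 3.37-fold. Gdf9 changed by -1.58, -2.77, -2.38 and -1.97, which is -2.18 on average or 4.52-fold. Every double-knockout array lay below both wildtype arrays in either case, and both exact permutation tests gave p = 0.0667, the smallest possible here (0.1 adjusted). The groups were already apart for Kit and Gdf9 alone, so these tests are no separate support for the falls. Both sizes depend on the markers averaged, whose own differences ran from -1.45 (Dppa3) to -0.11 (Stag3). Against Dppa3 alone both changes would be smaller, and the share due to germ cell number was not tested.

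**Figure D3:**
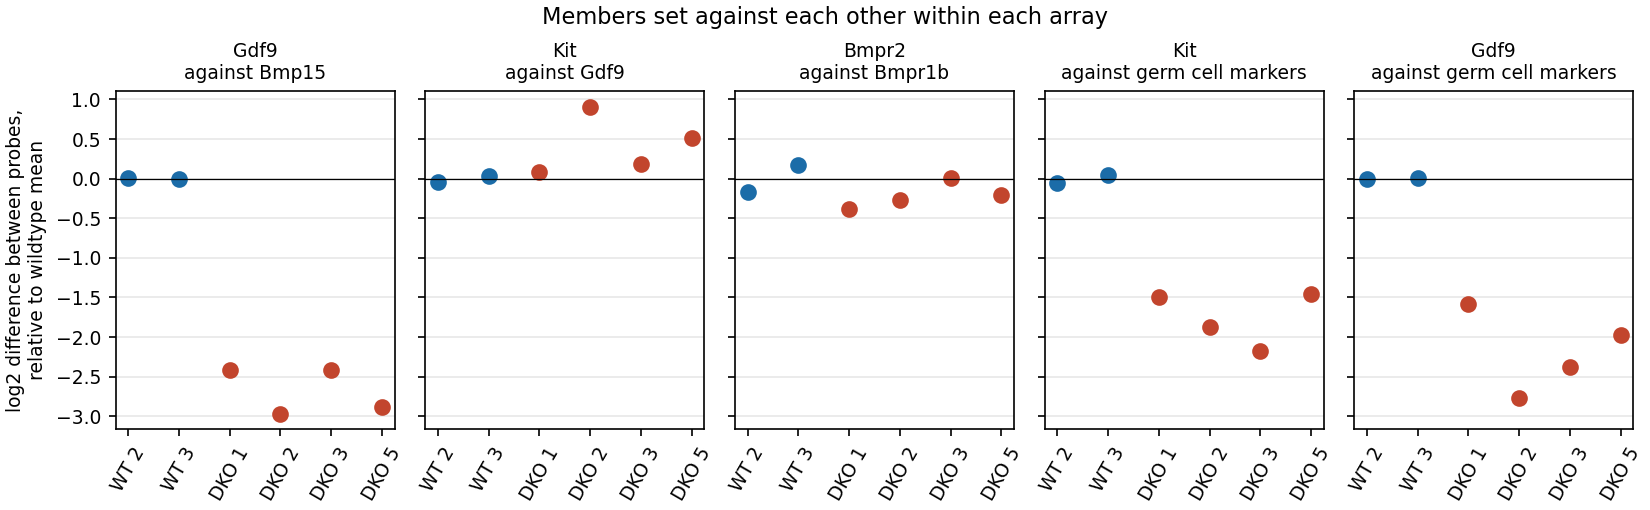
Log2 difference between a probe and another probe, or the mean of 4 germ cell markers, on each array, shown relative to the wildtype mean (vertical axis). Wildtype arrays are blue and double knockouts red; Gdf9 against Bmp15, and Kit and Gdf9 against the germ cell markers, lie below -1.4 on every double-knockout array, while Bmpr2 against Bmpr1b stays between -0.38 and 0.17.

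Mast cells also carry Kit, so their markers are given too. How much of the Kit signal came from mast cells in either genotype was not tested. Of 7 tested mast cell markers 5 rose, 1 fell and 1 did not pass, where 4.79% of all 12163 tested genes were called higher and 3.58% lower. This list, too, was chosen with earlier results of these data known. Tpsb2, a mast cell tryptase, rose 3.41-fold from 665.2 and 617.5 in wildtype to 1586.2, 2361.1, 1775.7 and 1512.0 in the double knockouts (adjusted p = 0.000749 by limma). Each double-knockout value lay above both wildtype values. The protease genes Mcpt4 and Cma1 rose 2.69-fold and 2.68-fold, Hdc, which makes histamine, rose 2.36-fold, and Cpa3, a carboxypeptidase, rose 2.18-fold.

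Gata2, a transcription factor of blood cells that other tissues share, fell (-0.94, adjusted p = 0.0394), and the receptor chain Fcer1a gave 0.94 (0.167). The summed level of the list was 6950 to 7708 in wildtype and 10320 to 15517 in the double knockout. Without wildtype array 2 the list had 3 called higher and without wildtype array 3 it had 2. Cpa3, Hdc and Gata2 lost their calls when either wildtype array was left out, Mcpt4 without wildtype array 3, Cpa3 and Gata2 without double-knockout array 1, and Gata2 without double-knockout array 3. Of the melanocyte markers Dct, Tyr, Tyrp1 and Mitf were not detected on any array, and Pmel and Ednrb gave -0.12 and -0.01.

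Kitl, the somatic partner of Kit, could not be followed on these arrays. Its brightest probe, ILMN_2751988, gave 64.5 and 49.9 in wildtype and 63.5, 61.2, 67.8 and 51.3 on double-knockout arrays 1, 2, 3 and 5. It was detected on 0 wildtype arrays and on double-knockout arrays 1 and 3 only, and the groups overlapped. The fitted difference was 0.19 ± 0.20 (SE, adjusted p = 0.615 by limma), and no fold is given, since the double-knockout mean of 4.70 lay below the lowest level that counts as detected on the wildtype arrays, 4.72. The other 2 Kitl probes were detected on no array. Kit against Kitl within each array gave -2.50 (exact p = 0.0667), a value that carries the fall of Kit against a background reading.

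The receptors of the oocyte ligands gave no call. Bmpr2, the shared type II receptor, gave raw signals of 1978.9 and 1500.0 in wildtype and 1167.7, 1493.9, 1312.5 and 1491.1 on double-knockout arrays 1, 2, 3 and 5 at its bright probe. These raw signals are highest in wildtype, but after normalization the groups overlapped, with levels of 10.68 and 10.46 against 10.44, 10.49, 10.31 and 10.60. The difference was -0.11 ± 0.15 (SE, adjusted p = 0.689 by limma) with a 95% interval from -0.44 to 0.22.

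A dim Bmpr2 probe, ILMN_2614324, gave 77.3 and 60.6 in wildtype and 72.1, 72.4, 71.8 and 68.6 in the double knockouts. It was not detected on wildtype array 3, and its difference was 0.26 ± 0.18 (SE, adjusted p = 0.425), opposite in sign to the bright probe. Of the other Bmpr2 probes, ILMN_2614322 was detected on double-knockout array 1 only (63.7) and ILMN_2768587 on no array.

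Bmpr1b, the type I receptor for BMP15, had a pair of probes above background. ILMN_1216262 gave 235.4 and 157.6 in wildtype and 176.5, 194.6, 150.3 and 193.1 on double-knockout arrays 1, 2, 3 and 5. The wildtype arrays differed from each other by 0.56 on the log2 scale, more than the double knockouts spanned (0.52). The difference was 0.10 ± 0.21 (SE, adjusted p = 0.818 by limma) with a 95% interval from -0.38 to 0.58. ILMN_2812900 gave 141.3 and 120.3 in wildtype and 114.9, 115.0, 105.3 and 120.6 in the double knockouts, a difference of -0.05 ± 0.16 (SE, adjusted p = 0.878).

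The interval of ILMN_2812900 ran from -0.40 to 0.30, so neither Bmpr1b probe shows that the genotypes were equal. Bmpr2 against Bmpr1b within each array changed by -0.21 (exact permutation p = 0.267). Endothelial cells and stroma also use BMPR2, and of 5 tested endothelial markers 0 were called (median 0.15).

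The wider pathway was read from 7 lists of 88 genes, of which 55 were tested. Of these 3 were called lower and 3 higher, 10.9% in all, against 8.38% of all tested genes in either direction, and their median was 0.02 against 0.03. The share is close to the background and says nothing particular about the pathway. Of 9 other BMP and activin receptors, Amhr2, the receptor of anti-Müllerian hormone, rose 1.55-fold (adjusted p = 0.0491 by limma) and 8 did not pass. Tgfbr1, the type I receptor for GDF9, gave -0.36 (adjusted p = 0.155) and Bmpr1a gave -0.56 (0.169). None of 6 tested SMAD genes was called (0 of 6 also at an unadjusted p under 0.05), with Smad3, which carries GDF9 signals, at 0.23 and Smad5, which carries BMP15 signals, at 0.05.

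Among 7 tested response genes of BMPs and GDF9, Id2, an inhibitor of helix-loop-helix factors, rose 1.69-fold from 258.7 and 268.6 to 334.8, 355.2, 356.3 and 414.8 (adjusted p = 0.0225 by limma). Its relatives Id1 and Id3 gave 0.56 (0.119) and -0.10 (0.845), and Has2, which makes hyaluronan in the cumulus, gave -0.23 (0.569). Ptgs2 and Ptx3, further cumulus genes, were not detected on any array. Of 5 BMP antagonists and 6 proteases that process the ligands 0 were called, with 1 in each list at an unadjusted p under 0.05. Twsg1, a BMP-binding protein, gave -0.30 (0.351), Nbl1, an antagonist, gave 0.20 (0.558), and the proprotein convertases Furin and Pcsk6 gave 0.02 (0.943) and 0.53 (0.0739).

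On the Kit side, 14 transducers held 1 call in each direction. The largest difference of the 14, that of the PI3-kinase subunit gene Pik3cd at 1.03, did not pass (adjusted p = 0.0504 by limma). Jak2, a kinase that binds cytokine receptors, fell 1.85-fold (adjusted p = 0.0156 by limma), from 1934.1 and 1257.2 to 666.6, 814.0, 806.3 and 667.0. Stat5a, a transcription factor activated by such kinases, rose 1.98-fold (0.0075), from 119.5 and 126.7 to 175.3, 185.4, 202.8 and 167.4. Of 8 genes listed as brakes, Foxo3, which restrains oocyte growth downstream of Kit and not Kit signalling itself, fell 2.68-fold (adjusted p = 0.00116). Its signal went from 567.0 and 440.9 to 159.2, 187.5, 213.2 and 182.9, with the groups apart. For Foxo3, too, fewer cells and less RNA per cell cannot be told apart in whole ovary. Socs6, a suppressor of cytokine signalling that binds Kit, fell 1.63-fold (0.0422).

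Foxo3 kept its call under all 15 alternatives, Stat5a under 14 and Jak2 under 13, while Id2 kept it under 10 and Amhr2 and Socs6 under 6. Without wildtype array 2 the adjusted p was 0.170 for Jak2, 0.109 for Stat5a, 0.211 for Id2, 0.349 for Amhr2 and 0.300 for Socs6. Without wildtype array 3 it was 0.0799 for Id2, 0.0695 for Amhr2 and 0.111 for Socs6. Id2 also lost its call without double-knockout array 1 (0.0624). Amhr2 and Socs6 lost theirs when any of the 4 double-knockout arrays was left out.

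**Figure D4:**
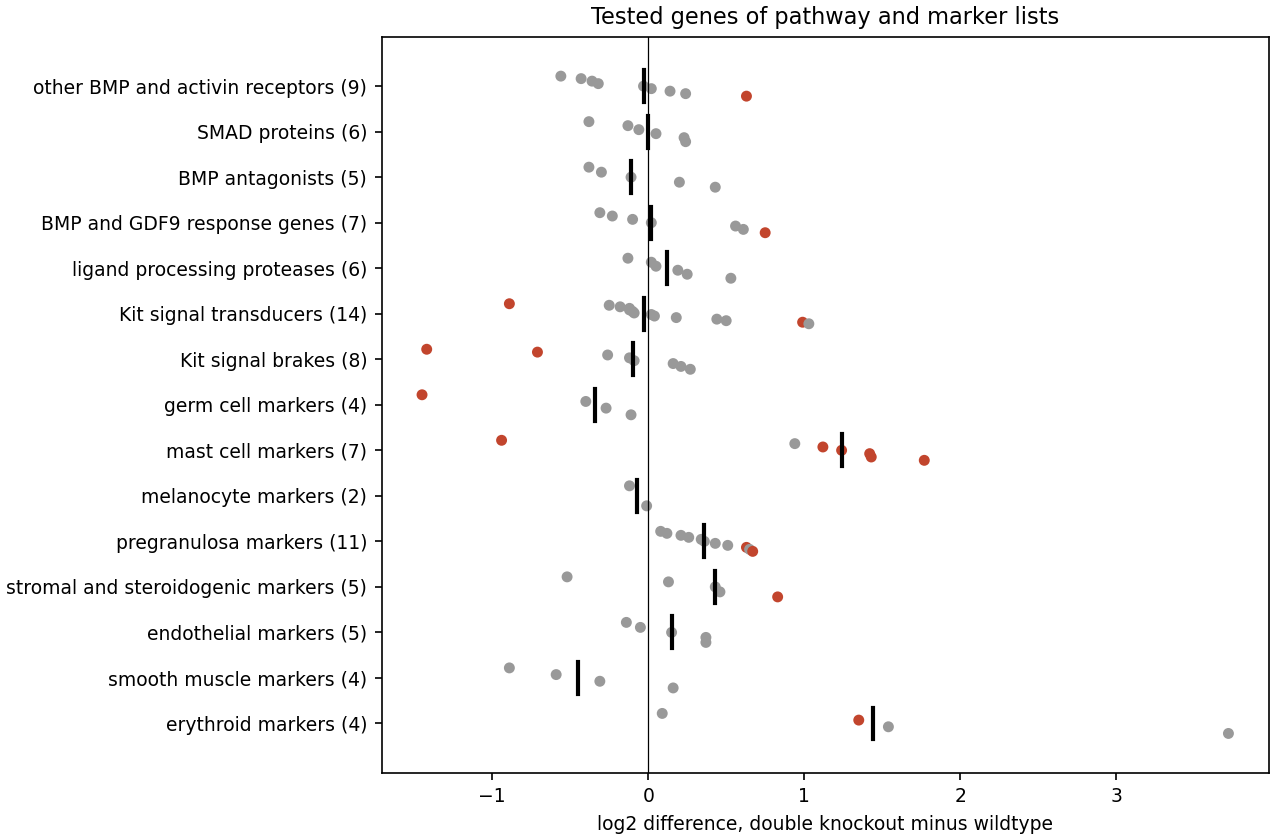
Log2 difference (double knockout minus wildtype, horizontal axis) of each tested gene of the pathway and marker lists, with the number tested in brackets, red points for an adjusted p under 0.05 and black bars for list medians. The 7 pathway lists scatter around 0 with medians between -0.11 and 0.12, and the mast cell and erythroid lists have medians of 1.24 and 1.44.

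Some markers of the somatic cells around the oocyte were bright and others lay near background. Foxl2 of the pregranulosa list gave 56.1 and 67.7 in wildtype and 57.8 to 66.8 in the double knockouts, near the array medians. It was detected on 1 wildtype and 2 double-knockout arrays and differed by 0.08 (adjusted p = 0.833 by limma). All 11 pregranulosa markers were tested, Amhr2 and Runx1, a transcription factor, rose (Runx1 1.59-fold, adjusted p = 0.0211 by limma), 9 did not pass, and the median was 0.36. Over all 12163 tested genes 4.79% were called higher and 3.58% lower, shares that also stand beside the calls of the marker lists below. The Runx1 probe was dim, and its difference of 0.67 was 0.40 with no background correction. Of the bright markers of this list besides Amhr2, the homeobox gene Irx3 gave 0.65 (0.0691) and the signalling ligand Wnt4 gave 0.36 (0.332). Their summed level ran from 5676 to 7975 in wildtype and from 9234 to 10803 in the double knockout. Both the calls and the median rested on single arrays. Without wildtype array 2 the median was 0.00 and without wildtype array 3 it was 0.67, and in both cases, as without double-knockout array 1, 0 of the 11 were called. The adjusted p of Runx1 was then 0.160, 0.113 and 0.0591.

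Among 5 stromal and steroidogenic markers (median 0.43) Cyp17a1, an androgen-making enzyme, rose 1.78-fold (adjusted p = 0.0145 by limma), a call that ended without wildtype array 2 (0.0892) or 3 (0.114). The Cyp17a1 probe was dim as well, and its difference of 0.83 was 0.52 with no background correction. The receptor Pdgfra gave 0.13 (0.754), and the transcription factors Tcf21 and Nr2f2 gave 0.43 (0.166) and -0.52 (0.187). The brightest endothelial markers, Emcn, Cdh5 and Pecam1, gave -0.05, 0.37 and 0.37. Of 4 smooth muscle markers 0 were called (median -0.45), with Acta2 at -0.31, Des at -0.89 (0.072) and Myh11 at 0.16. Des was the closest of these to a call.

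The 4 tested erythroid markers had a median of 1.44, and the summed level ran from 23576 to 25322 in wildtype and from 26093 to 30444 in the double knockout, most of it Hba-a1, an alpha globin, at 0.09 (0.741). Alas2, an enzyme of haem synthesis, rose 2.54-fold (adjusted p = 0.0405 by limma). Slc4a1, an anion exchanger of the red cell membrane, gave 223.1 and 113.8 in wildtype and 2835.5, 239.0, 4068.1 and 1343.7 in the double knockouts, a difference of 3.72 that did not pass (0.0628), and Klf1 gave 1.54 (0.184). Double-knockout array 2 lay close to wildtype array 2 for Slc4a1. The Alas2 call ended without wildtype array 2 (0.151) or 3 (0.223) or double-knockout array 1 (0.0764) or 3 (0.0635). The part of these shifts in the results for the signalling and pathway genes was not tested.

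The genes whose levels lay closest to those of Kit and Gdf9 over the 6 arrays were found by the Euclidean distance between log2 levels, each centred on its own mean. They were sought among 11526 tested genes with a gene name that is not a clone name. The levels were not scaled, so a near gene needs a genotype difference of similar size, and the differences listed are no separate result. Nearest to Kit were Pou5f1, a pluripotency factor that oocytes keep (distance 0.40, difference -2.08), Tcl1, which binds AKT (0.40, -2.16), and Elobl (0.42, -2.32). Elobl was detected on 1 of 4 double-knockout arrays. Nearest to Gdf9 were Gpr143, a receptor known from pigment cells (0.66, -2.74), Iqcf5 (0.71, -2.49) and Slc27a2, a fatty acid transport protein (0.78, -2.96). Kit was number 5 in order of closeness to Gdf9 and Gdf9 was number 24 for Kit, at a distance of 0.81.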

How the data were processed

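Per the labels' protocols, total RNA was purified on RNeasy columns with DNase, labelled with the TotalPrep kit and run on 6 arrays. GenomeStudio is named in the submitters' processing notes. The deposited raw table holds signal intensity per probe without background subtraction or normalization, as its values show. The deposited detection column holds a score, which is 1 when a probe is bright and was subtracted from 1 to give a detection p. The authors' series matrix intensity values are quantile normalized. Arrays detected 20124 to 20594 probes, and their number limits the precision.

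Background was corrected by normexp from detection p (limma 3.58.1, R 4.3.3; offset 16), followed by quantile normalization and log2. Probes detected at p under 0.05 on at least 2 arrays were fitted with lmFit and eBayes, without covariates, on all 6 arrays, and p-values were adjusted over all tested probes. Lists use each gene's brightest tested probe. The fit was tested on simulated data. Platform annotation gave 1 symbol to 34885 probes, several to 18 and left 10378 unnamed here. The titles' sample numbers are used. By rule each pathway list names up to 4 called genes (the 2 brightest if 0 were called), each marker list its 3 brightest, a lone call in a direction, and the 3 genes most like Kit or Gdf9. Tgfbr1, Bmpr1a, Id1, Id3, Has2, Pik3cd, Ddx4, Mcpt4, Tpsb2, Fcer1a, Runx1, Klf1 and Foxl2 were added after their values were seen. Members and lists were chosen with earlier results of these data known. Alternatives were other background, offset, scaling and filter settings, the authors' values, 1 probe per gene, a replicate block and each array left out.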

Additional observations from a re-analysis of the deposited data

Results flagged for a closer look

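The 4 double-knockout levels of 25 probes were searched for an array far from the others, which chance gives in about 1 in 20 groups, and 2 were found. For Bmpr1b probe ILMN_1216262, double-knockout array 3 stood low at 6.85 on the log2 scale, with 7.31 to 7.37 on the others (gap over range 0.889). For Jak2, double-knockout array 5 stood low at 9.36, with 9.58 to 9.60 on the others (0.908).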

How the results depend on the processing

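Gdf9 and Kit probe ILMN_1246876 were called lower under all 15 alternatives (-3.14 to -2.45 and -2.59 to -2.19, highest adjusted p = 0.0439 and 0.0189). Kit probe ILMN_1216898 gave -2.09 to -1.11, with -1.14 with no background correction and -1.11 with an offset of 50. Uncalled differences near 0 changed sign, for causes not tested: Bmp15 to 0.02 and 0.11 without arrays (-0.25 to 0.11; -0.46 with the title block and -0.21 with the description block), Kitl to -0.02 (up to 0.39), Bmpr2 probe ILMN_2614324 to -0.04 (up to 0.54), Bmpr1b probe ILMN_1216262 to -0.18 (up to 0.38) and -0.04 with the title block, and ILMN_2812900 to 0.04 (down to -0.15), with -0.17 with the title block and 0.01 with the description block. No sample label says that equal numbers mark a shared animal or litter, and same-numbered arrays deviated together at r = -0.10 and -0.03 (titles) and -0.11 and 0.10 (descriptions). With a replicate block by title number 881 of all probes were called in place of 1598, with 1 pathway gene lower and 1 higher; by description number 1262 were called and 1 was higher. With the title block Runx1 (adjusted p = 0.125 by limma), Cyp17a1 (0.0573), Alas2 (0.0634) and Gata2 (0.0749) lost their calls. So did Jak2 (0.0672), Id2 (0.139), Amhr2 (0.154) and Socs6 (0.145). The description block ended those of Gata2 (0.1), Id2 (0.0658), Amhr2 (0.142) and Socs6 (0.117). With no filter Alas2 (0.135), Cpa3 (0.0763), Gata2 (0.109), Dppa3 (0.0875), Amhr2 (0.0755) and Socs6 (0.0773) lost theirs. Leaving out 1 array gave 224 (wildtype 2) to 1431 called probes, with 431 without wildtype 3 and 856 without double-knockout 1. Pathway genes called lower were then 1 to 2 and higher 0 to 4. With no background correction, and in the authors' values, 5 pathway genes were higher. The 6 within-array comparisons kept their direction in all 8 alternatives each.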
